A study of Saccharomyces cerevisiae with 36 samples.

Results

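The genes described here encode 53 proteins of the small subunit (SSU) processome and of 40S subunit assembly in Saccharomyces cerevisiae. They were matched by name to the platform annotation, and the list was drawn up with earlier results of these data known. All 53 were found on the array, each with 1 probe set, a set of short oligonucleotides that reports 1 transcript, among 5449 genes with a gene symbol. DBP4 was found under its synonym HCA4.

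RNA was profiled in haploid W303a strains that were wild type (WT), eco1-W216G or scc2-D730V. Cultures in log phase in rich medium (YPD with complete supplement, OD600 0.4, time 0) were moved to minimal medium without amino acids and sampled at 15, 35 and 55 min. Each of the 12 groups of strain and time held 3 arrays, 36 in all, and the study's methods describe 3 independent cultures per strain. All 3 strains are MATa, auxotrophic for uracil, leucine, histidine and tryptophan, carry ade2-1 and can1-100, and lack BAR1. The mutants carry the point mutation at the ECO1 or SCC2 locus beside a hygromycin marker, so allele and marker cannot be told apart. Eco1 is the acetyltransferase that modifies the cohesin subunit Smc3, and Scc2 is part of the complex that loads cohesin onto chromosomes. The eco1-W216G strain grows slowly in rich medium, and growth rate and genotype cannot be told apart in these arrays.

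Ribosome assembly begins in the nucleolus, where RNA polymerase I makes a long precursor that holds the 18S rRNA between spacers. The SSU processome forms on this precursor around the U3 snoRNA, from preassembled modules (UtpA, UtpB, UtpC, the Mpp10 complex) and single factors, and permits the cleavages that release the 18S region. Late factors then escort the pre-40S particle to the cytoplasm, where the 3′ end of 18S rRNA is cut. In budding yeast these genes belong to the ribosome biogenesis regulon, whose transcripts drop quickly when nutrients are withdrawn.

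The deposited intensities were taken to log2, and the array medians over 5716 tested probe sets lay between 10.97 and 11.16. ECO1 transcript stood at 8.21, 8.87 and 8.23 on the WT arrays and at 5.26, 5.05 and 5.15 on the eco1-W216G arrays at 0 min, a log2 ratio of -3.28 (adjusted p = 3.09e-11 in limma). The ratio was smaller in size when starved, at -2.33, -1.46 and -1.03 at 15, 35 and 55 min, and passed each time. Why a strain with a point mutation had less ECO1 signal was not tested. SCC2 transcript did not pass the test in scc2-D730V at any time, and for a point mutant the level does not check the label. BAR1, which is deleted in all strains, read between 4.53 and 4.81 in the group means and marks the level of an absent transcript for its probe set. That level was not measured for other probe sets. BAR1 itself was called lower in eco1-W216G than in WT at 15 min (log2 ratio -0.22, adjusted p = 0.0356 in limma). The arrays were made from bulk RNA, in which fewer cells with a transcript and less transcript per cell cannot be told apart. The WT arrays entered the comparisons of both mutants. Arrays are 3 per group, which limits the precision, and a p that misses the threshold does not show that values did not differ.

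The transcripts of the SSU processome fell steeply within 15 min of starvation in WT and in scc2-D730V, and far less in eco1-W216G. The median over the members on an array was 12.12 ± 0.08 (SD, n = 3) in WT at 0 min and 7.42 ± 0.15 at 15 min, then 8.08 ± 0.48 at 35 min and 8.82 ± 0.71 at 55 min. In eco1-W216G it was 11.65 ± 0.22, 9.94 ± 0.46, 10.35 ± 0.15 and 10.39 ± 0.15 at the same times. In scc2-D730V it was 12.04 ± 0.09, 7.75 ± 0.31, 8.62 ± 0.74 and 9.29 ± 0.68. The eco1-W216G arrays lay below those of both other strains in rich medium and above them at each starved time. Spread between arrays of a group differed greatly: the median SD of a member was 0.13 in WT at 0 min and 0.77 in WT at 55 min, against 0.14 and 0.18 over all probe sets.

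**Figure D1:**
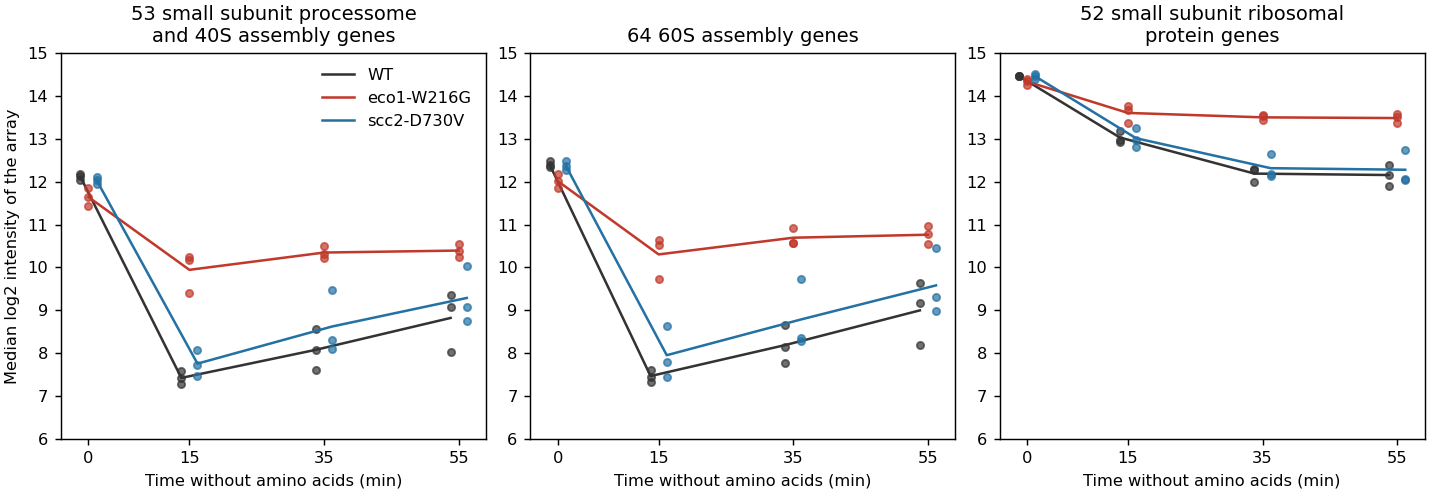
Median log2 intensity of each array (points) and mean of 3 arrays (lines) against time without amino acids, for the 53 members, 64 genes of 60S assembly and 52 genes of small subunit ribosomal proteins. The members of WT fell from 12.12 to 7.42 in 15 min, and those of eco1-W216G from 11.65 to 9.94.

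In WT all 53 members were lower than at 0 min at 15, 35 and 55 min (limma, adjusted p under 0.05), with median log2 ratios of -4.79, -4.15 and -3.42. Among all probe sets 36.5%, 35.8% and 35.1% were called lower at these times. Of the 100 probe sets with the largest falls at 15 min, 28 were members, and the largest measured fall belonged to UTP13, a WD-repeat protein of UtpB. UTP13 read 12.38, 12.23 and 12.23 at 0 min and 4.83, 5.37 and 5.75 at 15 min, a log2 ratio of -6.96 (standard error, SE, 0.59, adjusted p = 2.32e-11). The lowest of these arrays reached the BAR1 level of 4.81, so the true fall may be larger. ENP2, a WD-repeat protein that works with Bfr2 and Lcp5, fell by 6.39, and KRE33, the acetyltransferase of 18S rRNA cytidines, fell by 6.17. UTP8, a UtpA protein, fell by 6.13, and BFR2 fell by 6.0. At 15 min 4 members lay within 1 log2 unit of BAR1 and 11 within 1.5. Their falls in WT, and their ratios to WT at that time, may thus be lower bounds.

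The falls were uneven by role. UtpB had the largest median fall in WT at 15 min, with a log2 ratio of -5.58 over 6 genes, followed by the helicases at -5.17 over 5 genes and UtpA at -4.93 over 7 genes. The 14 other early factors had a median of -4.79, the 6 enzymes and partners -4.46, the 7 proteins of the Mpp10 complex, U3 and UtpC -3.92, and the 8 late 40S factors -3.67. The smallest falls were those of RIO1, a kinase of the last cytoplasmic steps, at -0.76 (adjusted p = 0.0104), and RRP7, a UtpC protein, at -1.30 (adjusted p = 0.000173). NOB1, the endonuclease that makes the 3′ end of 18S rRNA, fell by 2.40, and RIO2, a relative of Rio1 that binds pre-40S particles, fell by 2.41. These lists were not tested against each other.

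**Figure D2:**
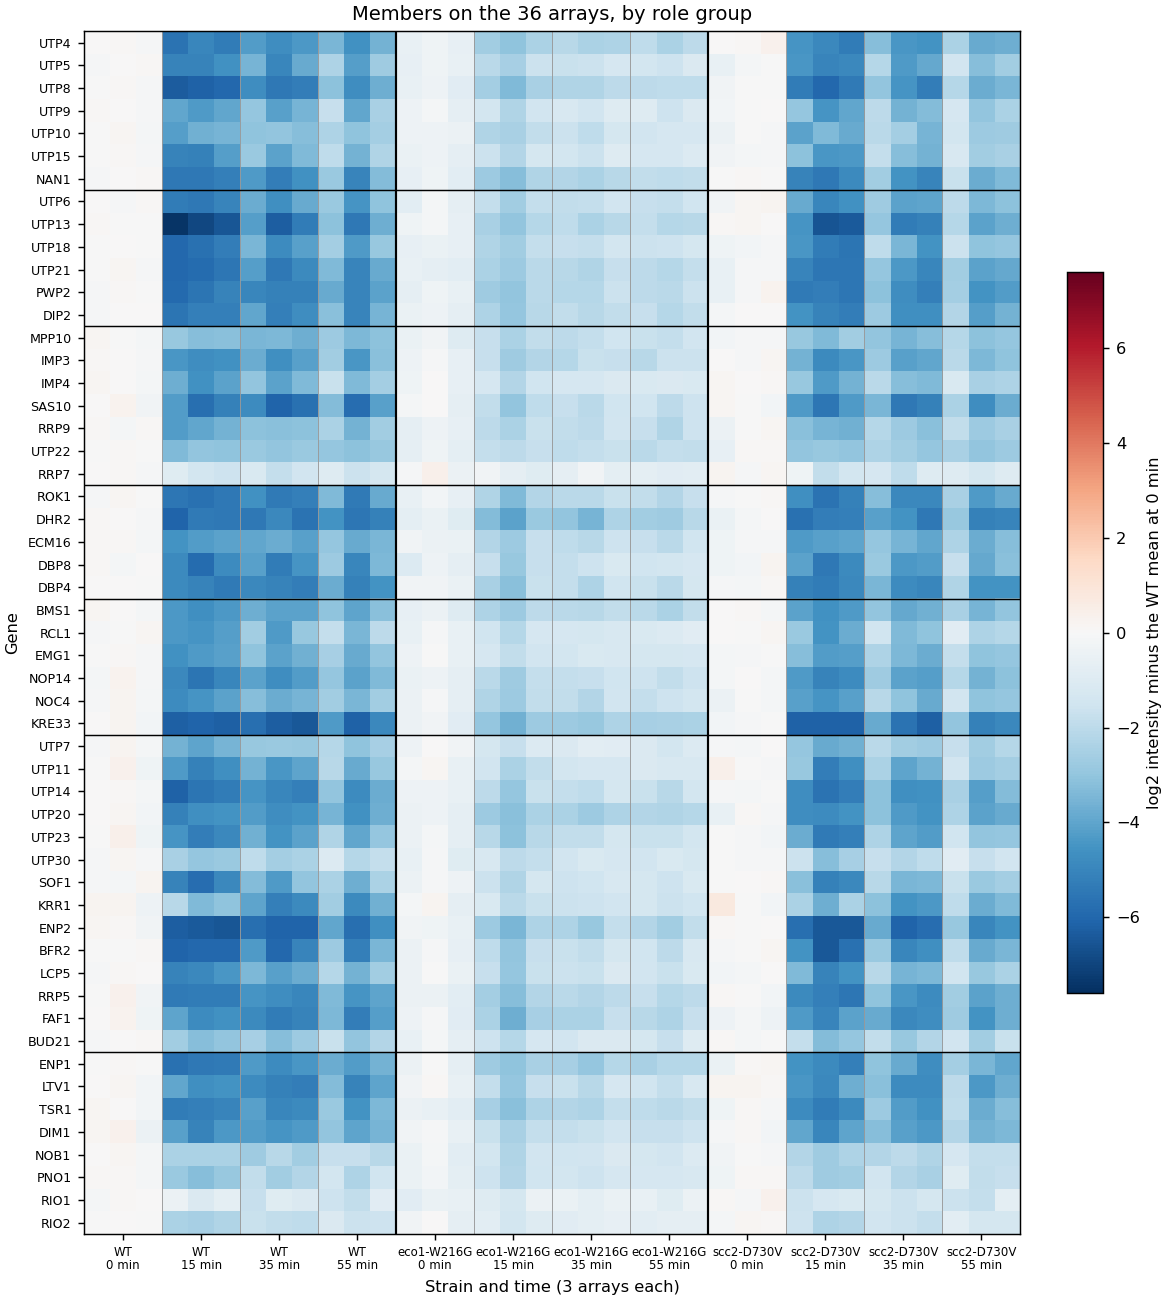
Each of the 53 members (lines, with black lines between role groups, from UtpA at the top to the late 40S factors at the bottom) on each of the 36 arrays, as log2 intensity minus the mean of the WT arrays at 0 min. The starved WT and scc2-D730V arrays are dark blue for most members, the starved eco1-W216G arrays are pale, and RRP7 and RIO1 are pale in every strain.

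The members did not all reach their lowest level at the same time. In WT 45 members had their lowest mean at 15 min, 7 at 35 min (MPP10, SAS10, RRP7, KRR1, FAF1, LTV1 and NOB1) and RIO1 at 55 min. KRR1, a KH-domain protein of the early particle, read 9.34, 8.04 and 8.34 in WT at 15 min and 7.40, 6.21 and 6.59 at 35 min. All its 35 min arrays lay below all its 15 min arrays. The same was true of MPP10, FAF1, a partner of Krr1, and LTV1, which acts in export of the pre-40S particle, and for 26 members the 35 min arrays all lay above the 15 min arrays. These orders are descriptions and were not tested.

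By 55 min many members had risen again in WT. Against 15 min 40 were higher and 1, RIO1, was lower, with a median log2 ratio of 1.33, against 20.3% of all probe sets called higher and 15.6% called lower. UTP13 rose by 2.86 (SE 0.59, adjusted p = 0.000435), SOF1, a WD-repeat protein, by 2.41 and UTP8 by 2.29. RIO1 read 10.33, 9.69 and 10.05 at 15 min and 9.19, 8.94 and 9.91 at 55 min, and the arrays overlapped (log2 ratio -0.67, adjusted p = 0.0431). The median share of the 15 min fall regained by 55 min, on the log2 scale, was 28.5%. The count of 40 rested on replicate 1 of WT, whose members stood highest at 35 and 55 min. It was 15 without that replicate, while the share of 20.3% is from the fit with all arrays. RIO1 was no longer called without WT replicate 1, WT replicate 2 or eco1-W216G replicate 1.

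The ribosomal proteins that the members help to assemble had a different course. Of 52 genes of small subunit ribosomal proteins 38 were lower and 1 was higher at 55 than at 15 min in WT (median -0.85), while of 64 genes of 60S assembly 54 were higher and 1 was lower (median 1.47). Probe sets of paralogous ribosomal protein genes can share targets.

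In scc2-D730V the members also fell and then rose. All 53 were lower at 15, 35 and 55 min than at 0 min, with medians of -4.41, -3.55 and -2.87, against 34.8%, 33.6% and 32.7% of all probe sets. From 15 to 55 min 43 were higher and none was lower (median 1.60, 19.1% of all probe sets higher).

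In eco1-W216G 51, 42 and 42 members were lower at 15, 35 and 55 min than at 0 min, with medians of -1.73, -1.25 and -1.25, and 27%, 26.6% and 25.8% of all probe sets were called lower. RIO1 and RRP7 did not pass at 15 min, with log2 ratios of -0.29 (adjusted p = 0.363) and -0.56 (adjusted p = 0.0975). The largest fall was that of DHR2, an RNA helicase of the DEAH family, by 2.71, and KRE33 fell by 2.58. From 15 to 55 min no member passed in limma (median 0.53, 5 members at an unadjusted p under 0.05, 1.54% of all probe sets called higher). The 55 min arrays of 23 members all lay above the 15 min arrays, against 15.7% of all probe sets. Without eco1-W216G replicate 2, the counts lower than 0 min were 31, 19 and 15. Without replicate 1 they were 25 at 35 min and 21 at 55 min. The shares of all probe sets given above are from the fit with all arrays. These smaller counts thus cannot be set against them.

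Member by member, the fall in eco1-W216G was a median of 38.7% of the WT fall at 15 min on the log2 scale, from 25.1% for UTP15, a UtpA protein, to 54.2% for FAF1. FAF1 lay near the BAR1 level in WT, so its share may be an upper bound. Among the 42 members over 1.5 log2 units above BAR1 the highest share was 51.5%, for NOB1 (median 38.8%). At 35 and 55 min the medians were 30.9% and 35.5%. In scc2-D730V the medians were 92.2%, 84.4% and 82.7%. The difference in change between eco1-W216G and WT was tested directly, as an interaction in the limma model. It was positive and passed for 50, 52 and 50 members at 15, 35 and 55 min, with medians of 3.00, 2.80 and 2.14, against 17.6%, 19.9% and 15.7% of all probe sets. KRR1, RRP7 and RIO1 did not pass at 15 min, RRP7 did not at 35 min (0.97, adjusted p = 0.0526), and PNO1, UTP30 and RRP7 did not at 55 min. At 55 min the count was 33 without WT replicate 2, with a median of 1.74, while the share of 15.7% is from all arrays. The same test for scc2-D730V called no member at any time, and 0% of all probe sets.

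In rich medium, before starvation, the members tended to be slightly lower in eco1-W216G than in WT. The log2 ratio was negative for all 53, with a median of -0.46 and a range from -0.70 to -0.05, where the median of all probe sets was -0.08. Only UTP22, a UtpC protein, was called in limma, against 11.5% of all probe sets called lower, and 6 members had an unadjusted p under 0.05. UTP22 read 12.29, 12.43 and 12.28 in WT and 11.68, 11.98 and 11.57 in eco1-W216G, a log2 ratio of -0.59 (SE 0.17, adjusted p = 0.00981). Its arrays did not overlap, and neither did those of 34 members in all, against 27.7% of all probe sets. The model pools the spread over all groups, starved ones included. A fit to the 0 min arrays of the 2 strains alone called 25 members lower, and 15.1% of all probe sets. UTP22 was lost without WT replicate 2, eco1-W216G replicate 1 or eco1-W216G replicate 3, and then no member was called. Against scc2-D730V at 0 min, UTP22 and RIO1 were lower in eco1-W216G (9.15% of all probe sets lower, median -0.40). Other genes of ribosome assembly also tended to be lower in eco1-W216G than in WT at 0 min. The ratio was negative for all 64 genes of 60S assembly (median -0.39) and 31 of 33 further small subunit factors (median -0.25). It was negative for 48 of 52 genes of small subunit ribosomal proteins, whose median of -0.09 was close to that of all probe sets. Of all 5716 probe sets the ratio was negative for 3374. In limma 1 gene of 60S assembly, 1 further small subunit factor and 0 ribosomal protein genes were called lower.

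**Figure D3:**
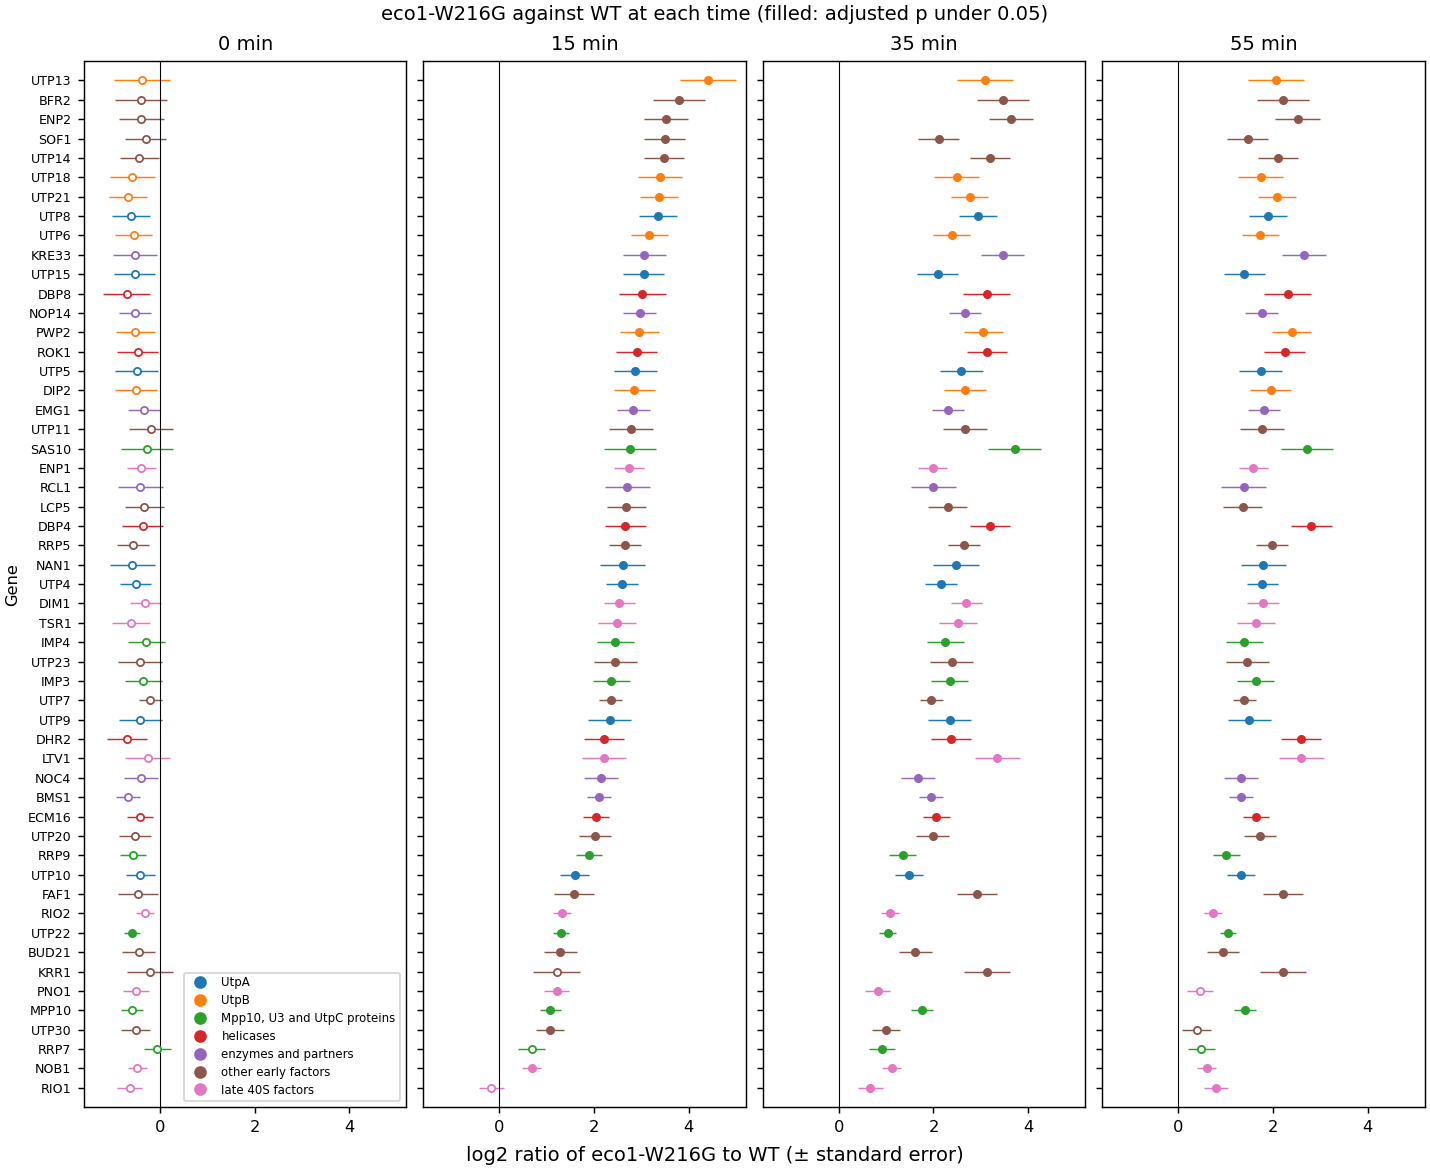
Log2 ratio of eco1-W216G to WT for each member at 0, 15, 35 and 55 min, with standard errors from limma, ordered by the ratio at 15 min and coloured by role group. Filled points passed at an adjusted p under 0.05: 1 at 0 min, 50 at 15 min, 53 at 35 min and 50 at 55 min.

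After starvation the order of the strains turned over. At 15 min the level of 50 members in eco1-W216G exceeded that in WT, with a median log2 ratio of 2.59, a 6.01-fold difference, against 18.9% of all probe sets called higher. At 35 min 53 were higher (median 2.37, 20.1% of all probe sets) and at 55 min 50 were higher (median 1.73, 17% of all probe sets). No member was lower at these times. The arrays of the strains did not overlap for 52, 53 and 50 members, against 24.2%, 24% and 21.7% of all probe sets. Without WT replicate 2, whose members stood lowest at 35 and 55 min, 34 were higher at 55 min, with a median of 1.24. The eco1-W216G arrays also stood above those of scc2-D730V. In that comparison 49, 51 and 32 members were higher at 15, 35 and 55 min (medians 2.21, 1.77 and 1.09). Of all probe sets 17.2%, 17.1% and 12.8% were higher. At 55 min 13 members were higher without scc2-D730V replicate 2 and 21 without eco1-W216G replicate 1. The shares of all probe sets in this paragraph are from the fit with all arrays, not from fits that leave out a replicate.

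The UtpA module binds the first stretch of the precursor, and its 7 members were all higher at 15, 35 and 55 min (medians 2.60, 2.34 and 1.74). UTP8 stood furthest apart at 15 min. It read 6.17, 6.37 and 6.52 in WT and 9.93, 9.15 and 10.03 in eco1-W216G, a log2 ratio of 3.35 (SE 0.40, adjusted p = 4.96e-07). All the mutant arrays were above all those of WT. UTP10, a large protein of the same module, differed least, with 8.92, 9.45 and 9.57 in WT and 10.81, 10.65 and 11.23 in eco1-W216G. Its arrays also did not overlap (log2 ratio 1.59, SE 0.30, adjusted p = 0.000142).

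UtpB, which binds next to UtpA and contacts the U3 snoRNA, had the largest medians of the role groups at 15 min, with all 6 members higher at each starved time (3.26, 2.72 and 2.01). UTP13 read 9.79, 9.28 and 10.10 in eco1-W216G at 15 min, against 4.83, 5.37 and 5.75 in WT. This log2 ratio of 4.41 (SE 0.59, adjusted p = 1.92e-06) may be a lower bound, since the WT arrays lay at or just above the BAR1 level of 4.81. At 55 min UTP13 ranged from 6.85 to 9.14 in WT and from 10.10 to 10.49 in eco1-W216G, a log2 ratio of 2.07. DIP2, a WD-repeat protein, had the smallest ratio of the module at 15 min, with 7.25, 7.58 and 7.56 in WT and 10.41, 9.84 and 10.68 in eco1-W216G (2.85, SE 0.44, adjusted p = 1.23e-05). For both genes the strains were fully apart at each starved time.

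Among the Mpp10 complex, U3 and UtpC proteins, 6 of 7 were higher at 15 min, 7 at 35 min and 6 at 55 min (medians 1.89, 1.76 and 1.4). SAS10, which binds Mpp10, read 7.89, 6.41 and 6.98 in WT and 10.22, 9.14 and 10.17 in eco1-W216G at 15 min, a log2 ratio of 2.75 (SE 0.55, adjusted p = 0.000244). At 35 min its ratio was 3.71, the largest of the members at that time, with 7.35, 6.05 and 6.46 in WT and 10.34, 10.07 and 10.57 in the mutant. RRP7 differed least, with 10.23, 9.72 and 9.58 in WT and 10.85, 10.48 and 10.24 in eco1-W216G at 15 min. The arrays were apart by a narrow margin, and the ratio of 0.68 missed the threshold (adjusted p = 0.0534). RRP7 passed at 35 min (0.91, adjusted p = 0.00918) and not at 55 min (0.49, adjusted p = 0.172). UTP22, its partner in UtpC and the gene that was lower in rich medium, was higher at 15 min by 1.30 (SE 0.17, adjusted p = 1.17e-06), with 8.96, 9.32 and 9.28 in WT and 10.53, 10.33 and 10.59 in eco1-W216G. Thus the arrays of UTP22 were apart in both media, in opposite directions.

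RNA helicases remodel the particle, and all 5 were higher at each starved time (medians 2.66, 3.12 and 2.31). DBP8, a DEAD-box helicase, read 6.75, 5.78 and 6.81 in WT and 9.83, 8.73 and 9.83 in eco1-W216G at 15 min, which gave a log2 ratio of 3.02 (SE 0.50, adjusted p = 2.78e-05). ECM16, or Dhr1, the helicase that frees U3 from the precursor, had the smallest ratio of the group, 2.04 (SE 0.28, adjusted p = 2.6e-06), with 7.32, 7.58 and 7.79 in WT and 9.64, 9.07 and 10.11 in the mutant. Neither gene's arrays overlapped.

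The enzymes and their partners were all higher at each starved time, 6 of 6 (medians 2.76, 2.15 and 1.57). KRE33 read 6.22, 6.37 and 6.23 in WT and 9.52, 8.82 and 9.66 in eco1-W216G at 15 min, a log2 ratio of 3.06 (SE 0.46, adjusted p = 8.4e-06). It stayed low in WT at 35 min, at 6.71, 6.17 and 6.03, where the ratio was 3.46. BMS1, a GTPase, had the smallest ratio, 2.10 (SE 0.25, adjusted p = 5.32e-07), with 8.0, 7.75 and 8.01 in WT and 10.02, 9.61 and 10.42 in the mutant. The strains did not overlap for either gene.

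Of the 14 other early factors 13, 14 and 13 were higher at 15, 35 and 55 min (medians 2.56, 2.51 and 1.74). BFR2 read 5.86, 6.01 and 6.02 in WT and 10.05, 8.97 and 10.24 in eco1-W216G at 15 min, a log2 ratio of 3.79 (SE 0.55, adjusted p = 5.86e-06). UTP30, a dispensable protein related to a large subunit ribosomal protein, had the smallest ratio, 1.07 (SE 0.30, adjusted p = 0.0054), with 8.89, 8.39 and 8.50 in WT and 10.12, 9.36 and 9.51 in the mutant. The arrays of both were apart at 15 min. KRR1 read 10.26, 9.36 and 9.73 in eco1-W216G at 15 min, all above the WT arrays, and its ratio of 1.21 fell just short (adjusted p = 0.0501). At 35 min, where WT KRR1 was lowest, the ratio was 3.13 (SE 0.49, adjusted p = 1.16e-05), and at 55 min it was 2.21.

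**Figure D4:**
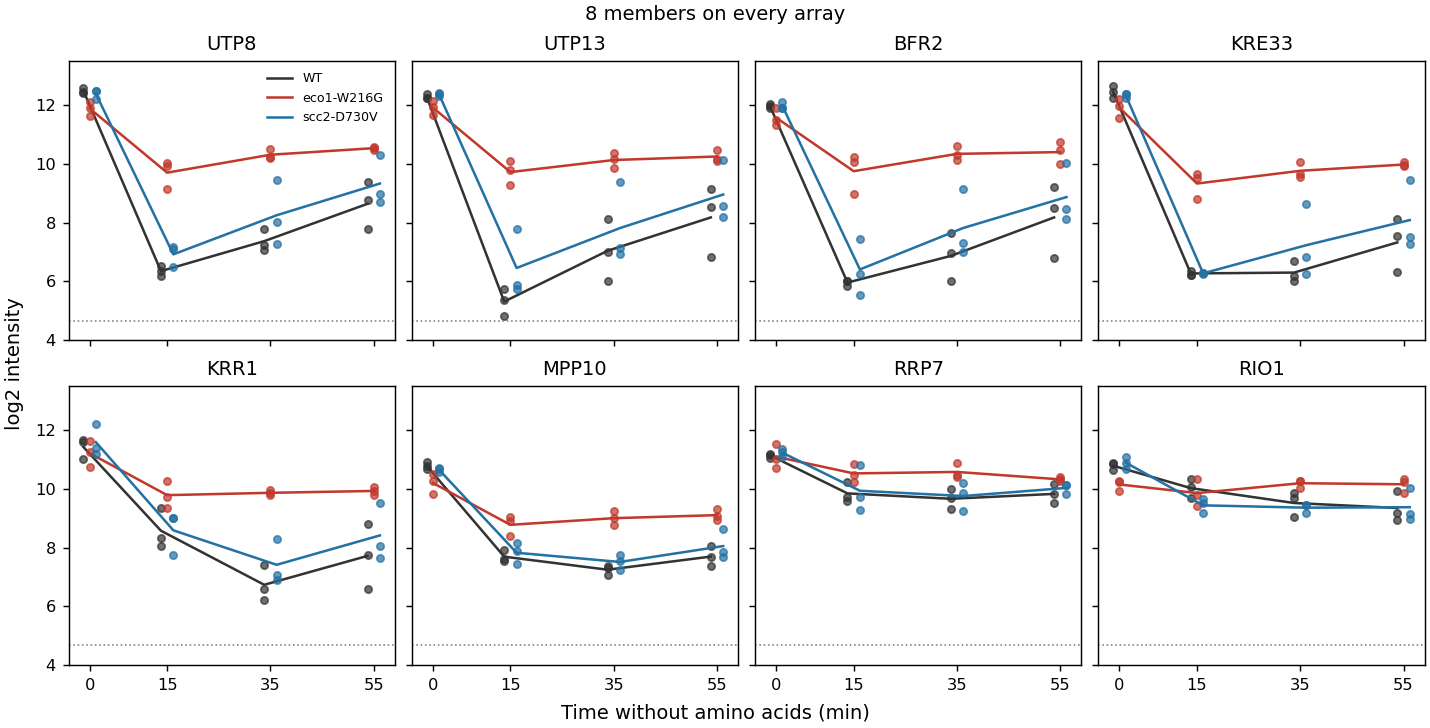
Log2 intensity of 8 members on every array (points, 3 per strain and time) with group means (lines), against time without amino acids. The dotted line is the mean of BAR1, which is deleted in all strains. In UTP8, UTP13, BFR2 and KRE33 the WT arrays fell between 4.83 and 6.52 at 15 min, KRR1 and MPP10 were lower in WT at 35 than at 15 min, and RRP7 and RIO1 moved least.

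The late 40S factors had the smallest medians of the role groups (1.77, 1.55 and 1.2), with 7, 8 and 7 of 8 higher at 15, 35 and 55 min. ENP1, which binds the pre-40S particle from the nucleolus to the cytoplasm, read 6.77, 7.05 and 7.10 in WT and 9.74, 9.41 and 9.99 in eco1-W216G at 15 min, a log2 ratio of 2.74 (SE 0.31, adjusted p = 2.68e-07). Its strains were fully apart. NOB1 and its partner PNO1 had ratios of 0.68 (adjusted p = 0.00764) and 1.21 (adjusted p = 0.000914), and PNO1 did not pass at 55 min (0.46, adjusted p = 0.189). RIO1 stood alone. It read 10.33, 9.69 and 10.05 in WT and 9.80, 9.42 and 10.34 in eco1-W216G at 15 min, overlapping, with a ratio of -0.17 (adjusted p = 0.635). In the mutant RIO1 was 10.25, 10.04 and 10.28 at 35 min, close to its rich medium values of 9.94, 10.27 and 10.23, and it was above WT by 0.67 (adjusted p = 0.0357) at 35 min and by 0.80 (adjusted p = 0.016) at 55 min.

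Over the 36 arrays each member was compared with the mean of the other members. The correlation had a median of 0.98, and it was lowest for RIO1 (0.71), RRP7 (0.86) and KRR1 (0.89). Arrays shared strain and time, so this mostly repeats the group means. After the group means were taken out, the median correlation was 0.90 and that of RIO1 was 0.11. Differences between cultures of a group were thus largely shared by the members. The members lie on 14 chromosomes and none is next to another. These correlations are descriptions with no test.

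**Figure D5:**
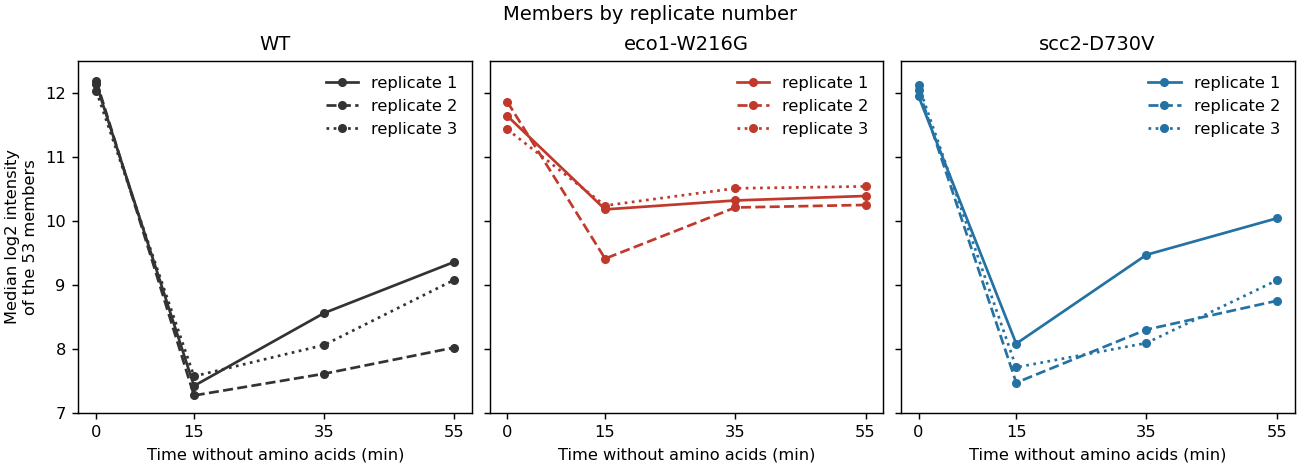
Median log2 intensity of the 53 members on each array against time, with arrays of the same replicate number joined. WT replicate 2 was lowest at 35 and 55 min (7.61 and 8.02), and replicate 1 was the highest scc2-D730V array at these times (9.47 and 10.04). All eco1-W216G arrays lay above both at these times, from 10.21 to 10.54.

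In scc2-D730V no member passed limma's test against WT at any time, and 0.035% of all probe sets were called at each time, in either direction. At an unadjusted p under 0.05 there were 0, 2, 3 and 0 members at 0, 15, 35 and 55 min, against 1.61%, 3.03%, 1.21% and 0.35% of all probe sets. Of the 2 at 15 min 1 was higher in scc2-D730V (log2 ratio 0.81). The other, RIO1, was lower (-0.59), with all its arrays below those of WT. The 3 at 35 min were higher. The medians of the members were -0.05, 0.27, 0.60 and 0.53. The largest ratio at 15 min was that of UTP13, with 7.77, 5.74 and 5.87 in scc2-D730V against 4.83, 5.37 and 5.75 in WT (1.14, SE 0.59, adjusted p = 1). Replicate 1 of the mutant stood far above the WT arrays, and its other arrays lay beside the highest of them. Leaving out scc2-D730V replicate 1 alone gave medians of 0.13, 0.14 and 0.11 at 15, 35 and 55 min.

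Arrays of WT and scc2-D730V with the same replicate number deviated together from their group means, with a correlation over 0.1 in 11 of 12 pairs (0.01 to 0.84), so leaving out an array of 1 strain also unbalances the numbers. With replicate 1 left out of all strains the medians were 0.08, 0.30 and 0.43 at 15, 35 and 55 min. Within the same number at 35 min the median difference of scc2-D730V from WT was 1.16 for replicate 1, 0.48 for replicate 2 and 0.13 for replicate 3, and 29 members were higher in scc2-D730V in all 3, against 14.5% of all probe sets. At 55 min the differences were 0.76, 0.75 and 0.11, and 32 members were higher in all 3, against 15.3%. SAS10, UTP8 and KRE33 were among the members higher in each number at 35 min. For UTP8 in replicate 3 the values were nearly equal, 7.26 in scc2-D730V and 7.25 in WT. A limma fit with the number as a block within each time, added after seeing the data, again called no member. At an unadjusted p under 0.05 it had 0, 9, 31 and 30 members at 0, 15, 35 and 55 min, against 5.27%, 8.97%, 7.86% and 5.3% of all probe sets, and the lowest adjusted p of a member was 0.397. The planned fit with the replicate number as a block had 0, 7, 10 and 1 such members at the same times. Its lowest adjusted p of a member was 0.806, and its share of all probe sets was not counted. In neither fit did the difference pass the correction, which does not show that it is absent.

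Other genes of ribosome assembly were also higher. Of 33 further small subunit factors 26, 29 and 22 stood higher in the eco1-W216G strain than in WT at 15, 35 and 55 min (medians 2.16, 1.83 and 1.33). Of 64 genes of 60S assembly 62, 62 and 60 were higher (medians 2.73, 2.59 and 1.70). The 52 genes of small subunit ribosomal proteins had 31 genes higher at 15 min (median 0.49), then 50 at 35 min (1.39) and 51 at 55 min (1.38). No test was made between these lists.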

How the data were processed

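RNA of 36 samples was hybridised to Affymetrix Yeast Genome 2.0 arrays. The authors processed the arrays by RMA (version not given in the sources used here), which corrects background, quantile-normalizes and summarises probes, and deposited an intensity per probe set and array, on a linear scale from 17.3 to 43883. The design had assumed log2 values, so log2 of the deposited intensity was taken first. RMA sets all arrays to a common distribution, so a change in total mRNA is not seen. All 36 columns were used, and 98 of 5814 probe sets, the array and reporter controls, were left out, which leaves 5716 tested.

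With limma 3.58.1 in R 4.3.3, all arrays were fitted together with a coefficient for each of the 12 groups (24 residual degrees of freedom, prior 3.75), and Benjamini-Hochberg adjustment was applied within each comparison, with 0.05 as the threshold. Groups came from the sample labels. The procedure was tested on simulated data. The members, role groups and lists were chosen with earlier results of these data known. The genes given array by array are, in each role group, those with the largest and the smallest ratio of eco1-W216G to WT at 15 min, members called in a mutant against WT at 0 min, called lower than WT when starved, or called in scc2-D730V, and members not passing for WT at 15 against 0 min or for eco1-W216G against WT at 15 min. ENP2, SOF1, DHR2, NOB1, RIO2, UTP15, PNO1, MPP10, FAF1 and LTV1 are named as extremes or exceptions after their values were seen. MPP10 is also drawn array by array in a figure. The study describes independent cultures of each strain that were moved to the new medium and sampled over time, so times of a strain share cultures. The labels do not say which arrays share a culture. Same-numbered arrays of a strain deviated together between starved times, with a correlation over 0.1 in 23 of 27 pairs (-0.21 to 0.88). The p-values take the arrays as independent. Gene names came from the platform annotation and from RefSeq (assembly R64). A search for promoter motifs was not run, and no sequences were used here. The alternatives covered the arrays in the fit, normalization, a filter and a floor on dim probe sets, variance model, array weights, blocks, adjustment, thresholds and replicates.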

Additional observations from a re-analysis of the deposited data

Results flagged for a closer look

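The change from 0 min differed between eco1-W216G and WT, by limma's test of the difference itself, for 50 of the 53 members at 15 min. At 35 min the difference passed for 52 members, and at 55 min for 50. Of all probe sets 17.6%, 19.9% and 15.7% passed with a positive difference at 15, 35 and 55 min.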

How the results depend on the processing

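Of 1216 values under alternatives, 1094 stayed within the limits set for a change, and for medians these limits did not check the sign. Of 5675 values of single members, 173 fell below the threshold and 122 rose above it. None changed sign among values called in the main fit or in the alternative, and the sign of other values was not checked. No cause was tested beyond what an alternative's construction shows. Signal over background limits the members nearest BAR1, 4 within 1 log2 unit in WT at 15 min. The mean over all probe sets of a gene could not differ, as each member has 1.

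With the dimmest 25% of probe sets left out, 22 members could be tested and 31 could not, so counts dropped by construction. The counts were 21, 22 and 20 for eco1-W216G above WT at 15, 35 and 55 min, 20, 21 and 9 above scc2-D730V and 1 below it at 0 min. Starved against 0 min they were 22 at each time in WT and scc2-D730V and 21, 17 and 16 in eco1-W216G, and from 15 to 55 min 19 higher and 0 lower in WT and 20 higher in scc2-D730V. The difference of changes passed for 21, 22 and 20. Medians under this filter were -4.41 and -3.54 in WT at 15 and 35 min, -3.81, -2.92 and -2.26 in scc2-D730V, -0.97 in eco1-W216G at 55 min, and 2.72 for the difference of changes at 15 min.

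At an adjusted p under 0.001, 0 members were lower in eco1-W216G than in WT or scc2-D730V at 0 min. Then 26 were above WT at 55 min, 28 and 4 above scc2-D730V at 35 and 55 min, 32, 12 and 8 below 0 min in eco1-W216G, 12 higher and 0 lower from 15 to 55 min in WT, 16 higher in scc2-D730V, and 14 passed for the difference of changes at 55 min. With a limit of 1.4-fold, 1 was below scc2-D730V at 0 min. No share of all probe sets is given for the counts of this paragraph. They thus do not show that members stood out from other probe sets under these limits.

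For eco1-W216G below WT at 0 min the count was 25 with only the arrays compared, 11 with array weights, and 2 with quantile normalization or the culture as a random block. Below scc2-D730V it was 5 with only the arrays compared (262 probe sets) and 22 with array weights (1668). It was 1 with median centring (489), the trended variance (504) or the random block (529). At 55 min above scc2-D730V it was 21 with only the arrays compared (541 probe sets) and 49 with array weights (938). From 15 to 55 min in eco1-W216G 1 was higher with only those arrays (92 probe sets) or with adjustment over the family (398). With array weights 5 were higher (366). In scc2-D730V 15 were higher with only those arrays (329). RIO1 was then not lower in WT (0 with only those arrays and with array weights). The WT median at 15 min was -4.61 after quantile normalization.

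With the replicate number as a block, 4 members were lower in eco1-W216G than in WT at 0 min, and 52, 53 and 50 higher at 15, 35 and 55 min. Deviations of same-numbered arrays correlated over 0.1 in 11 of 12 pairs of WT with scc2-D730V, 10 of 12 of WT with eco1-W216G and 8 of 12 of the mutants (-0.33 to 0.84 in all). The numbers were thus partly shared, but not in every pair, and the labels do not say what a number marks, so the block stayed an alternative. It moved no other count by over 1.5 times, and it called no member in scc2-D730V against WT.

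Leaving out 1 replicate at a time gave 0 to 4 below WT and 0 to 3 below scc2-D730V at 0 min, 13 to 48 above scc2-D730V at 55 min, 15 to 42 higher and 0 to 1 lower from 15 to 55 min in WT, and 0 to 1 higher in eco1-W216G. Falls in eco1-W216G were called for 31 to 51, 19 to 49 and 15 to 48 members. Their medians ran from -1.97 to -1.33, -1.50 to -1.06 and -1.44 to -1.0. The counts of this paragraph are not set against a share of all probe sets under the same setting. Medians at 15 min ran from -4.98 to -4.55 in WT and -4.75 to -4.09 in scc2-D730V, and for scc2-D730V against WT from 0.13 to 0.52. For the difference of changes of eco1-W216G they ran from 2.66 to 3.38, 2.52 to 3.01 and 1.74 to 2.43, with 33 to 52 passing at 55 min, and for scc2-D730V from 0.09 to 0.55 at 15 min and 0.14 to 0.95 at 35 min. With the same number left out of all strains, chosen after seeing the data, the difference of changes of scc2-D730V at 15 min had a median of 0.11 without replicate 1 and 0.53 without replicate 3, and its median against WT at 0 min was -0.15 without replicate 3.

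With WT replicate 2 and scc2-D730V replicate 1 both left out, chosen after seeing the data, the median of scc2-D730V against WT was 0.03 at 0 min, 0.02 at 15 min and -0.32 at 55 min, and its difference of changes was -0.01, -0.08 and -0.34, so signs turned. This leaves different numbers in the 2 strains. Counts were 3 below WT and 7 below scc2-D730V at 0 min, 50 above scc2-D730V at 55 min, 8 higher from 15 to 55 min in eco1-W216G and 0 lower in WT. Medians were -4.55 in WT and -4.75 in scc2-D730V at 15 min, and 2.52 and 1.74 for the difference of changes of eco1-W216G at 35 and 55 min.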
